A study of Mus musculus with 2 samples.

Results

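The dentate granule nuclei of mouse hippocampus were described here in single-nucleus RNA sequencing of 2 libraries, 1 of the CAPZA2+/- genotype (heterozygous for a Capza2 knockout), called Het, and 1 of wild type, called WT. A nucleus was taken as a granule nucleus when it had at least 500 genes, at most 5% mitochondrial UMIs (unique molecular identifiers, 1 per captured RNA molecule), a summed count of Prox1, Glis3, C1ql2 and Trpc6 of at least 5, at most 1 UMI of Gad1 and Gad2, of Gja1 and Aqp4 and of Mobp and Mog, 0 of Pdgfra, and at most 4 of Nectin3, Cd109 and Rerg. The members were thus chosen by their measured UMIs of these genes, whose levels describe the choice and support nothing. The rule took 1789 of 7801 Het barcodes and 1257 of 6512 WT barcodes, 3046 of 14313 in all. Both libraries came from nuclei of dissected hippocampus, isolated by Dounce homogenisation and density centrifugation and prepared with the 10x Genomics single cell 3' v3 chemistry. The labels give neither age nor sex, nor the number of animals behind a library, nor which part of Capza2 is deleted. With 1 library per genotype no difference between Het and WT has a replicate check, so no test was made between genotypes. Intervals in brackets are exact 95% intervals that cover counting error only, and an interval that leaves out 0 says that the 2 libraries differ by more than counting error, not that the genotypes do.

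Dentate granule cells are the principal excitatory neurons of the dentate gyrus. They receive entorhinal input on their dendrites and send mossy fibres, with large zinc-rich terminals, to hilar mossy cells and CA3 pyramidal cells. They are one of the few neuron types that go on being born in adult rodents, and their gene expression differs along the long axis of the hippocampus. Capza2 encodes an alpha subunit of the actin capping protein, which binds the fast-growing ends of actin filaments together with the beta subunit encoded by Capzb.

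The granule nuclei were alike in depth. They held 15715754 UMIs in Het and 11410790 in WT. The median nucleus had 7236 UMIs and 2930.0 genes in Het and 7225 UMIs and 2921 genes in WT. The libraries shared 13 barcodes, of which 0 were granule nuclei. More Het than WT barcodes were under the quality filter, 7.56% in Het and 1.35% in WT. RNA from outside these nuclei differed too. Mitochondrial transcripts, made outside the nucleus, came to 5.86 UMIs per granule nucleus in Het and 10.9 in WT. Ttr, the transthyretin gene of choroid plexus epithelium, came to 1.54 UMIs per granule nucleus in Het and 0.634 in WT, and hemoglobin transcripts to 0.198 in Het and 0.107 in WT. The part of these differences in the results below was not tested.

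Granule nuclei were a larger share of the Het library. They made up 24.8% of the 7211 filtered Het nuclei (23.8% to 25.8%) and 19.6% of the 6424 filtered WT nuclei (18.6% to 20.6%, exact binomial intervals), a ratio of 1.27 (1.18 to 1.36). Set against the other excitatory nuclei alone, granule nuclei were 56.3% of the pair of classes in Het (54.6% to 58.1%) and 40.5% in WT (38.8% to 42.3%). The other excitatory nuclei passed the same filter, had at most 1 UMI of the 4 rule markers and at least 5 of Slc17a7, Sv2b and Arpp21, and numbered 1387 in Het and 1846 in WT. With 1 library per genotype, cell number and the extent of the dissection cannot be told apart. The marker sum was a little higher in Het granule nuclei, with a median of 12 UMIs in Het and 10 in WT, and 21.8% of the Het members and 26.3% of the WT members had 5 to 7 UMIs, close to the threshold. Just inside the threshold, at a sum of 5, Rfx3 stood at 1593 CPM (counts per 1000000 UMIs of the summed nuclei) in 122 Het nuclei and 1611 CPM in 127 WT nuclei. Just outside, at a sum of 4, it stood at 1124 CPM in 146 Het nuclei and 1190.1 CPM in 131 WT nuclei. In other excitatory nuclei Rfx3 stood at 229.7 CPM in Het and 245 CPM in WT, well below the nuclei on either side of the threshold.

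Genes that the rule did not use were in keeping with the label. Sema5a, a semaphorin guidance gene, had 639 CPM in granule nuclei and 56.9 CPM in other excitatory nuclei of Het, and 585 and 38.6 CPM in the same classes of WT. Rfx3, a transcription factor gene, had 1930.4 CPM in Het and 1826 CPM in WT granule nuclei, a log2 ratio over other excitatory nuclei of 3.07 in Het and 2.90 in WT. Of 17 genes listed as granule cell genes outside the rule, 14 were at least 2-fold higher in granule than in other excitatory nuclei in both libraries (log2 ratio of at least 1), beside 4.25% of the 10608 genes compared. Prox1, the homeobox gene that defines granule cell identity, is a rule gene and had 285 CPM in Het and 264 CPM in WT granule nuclei. Oligodendrocyte nuclei held 246 CPM of it in Het and 213 CPM in WT. Glis3, a rule gene and zinc finger transcription factor, had 735 CPM in Het and 673 CPM in WT granule nuclei, against 8.07 CPM in Het and 0 in WT oligodendrocyte nuclei. The rule genes were also a little higher in Het, most in C1ql2, a secreted synaptic organiser gene, with 77.0 CPM in Het and 53.5 CPM in WT granule nuclei.

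Leaving out the genes of the rule, the 15 genes that stood highest over other excitatory nuclei, ranked by the library nearer 0, were led by Onecut1, Adarb2, Stxbp6, Plk5, Prox1os, Zfp536, Dsp, Dock10 and Stra6, and Npnt, Pde7b, Emp2, Cald1 and Il1r1 were also among them. Because the classes were cut by genes expressed in the same nuclei, these ratios describe the class and carry no test. Onecut1, a homeobox transcription factor gene, led with a log2 ratio of 5.89 in Het (5.07 to 6.85) and 6.27 in WT (5.42 to 7.29). Adarb2, which encodes an RNA-binding relative of the RNA-editing deaminases and is often used to mark interneurons, had 1624 CPM in granule and 16.1 CPM in other excitatory nuclei of Het, and 1701 and 29.0 CPM in WT. Stxbp6, encoding a SNARE-binding protein, had 823 CPM in Het and 745 CPM in WT granule nuclei. Il1r1, the receptor gene for interleukin 1, had 30.03 CPM in Het and 31.5 CPM in WT granule nuclei, against 1.42 and 1.79 CPM in other excitatory nuclei of Het and WT. Dsp, the desmoplakin gene, had 44.2 CPM in Het and 51.4 CPM in WT granule nuclei. Calb1, encoding the calcium buffer calbindin, had 140.1 CPM in Het and 149.9 CPM in WT granule nuclei, against 35.0 CPM in Het and 33.1 CPM in WT other excitatory nuclei. The lowest 8 genes, again without the rule genes, were Mgat4c, Scube1, St8sia6, Kcnc2, Kcnq5, Luzp2, Klhl1 and Sox5. Kcnq5, an M-type potassium channel gene, had 213.7 CPM in granule and 2159 CPM in other excitatory nuclei of Het, and 241 and 2008 CPM in WT. Kcnc2, a fast delayed-rectifier potassium channel gene, had a log2 ratio of granule over other excitatory nuclei of -3.30 in Het and -3.07 in WT.

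**Figure D1:**
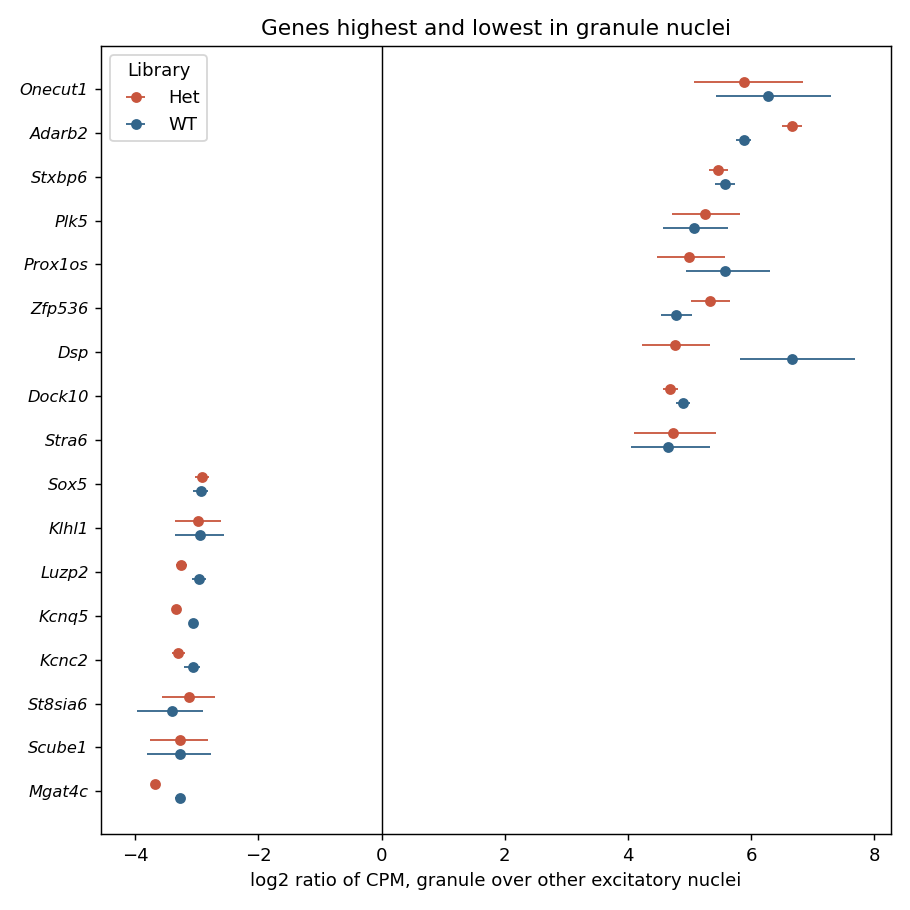
The log2 ratio of CPM, granule over other excitatory nuclei, for the 9 genes highest and the 8 lowest in granule nuclei outside the rule, with Het and WT points above each other and exact 95% intervals (counting error only) as bars. Each gene lies on the same side of 0 in both libraries, and Adarb2 has the highest Het ratio, 6.66.

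Genes of the mossy fibre synapse and of peptide storage were of mixed rank. Of 20 mossy fibre genes, 6 were at least 2-fold higher in granule nuclei in both libraries and 3 at least 2-fold lower. Of all genes, 4.25% were higher and 5.39% lower by that measure. The median of the 20 was 0.39 in Het and 0.39 in WT, against 0.12 in Het and 0.07 in WT for all genes. Of 14 secretory granule and peptide genes compared, 2 were at least 2-fold higher in both libraries and 3 at least 2-fold lower. The median of the 14 was -0.24 in Het and -0.47 in WT. Synpr, encoding the synaptic vesicle protein synaptoporin, had 974 CPM in Het and 831 CPM in WT granule nuclei, against 92.7 and 66.1 CPM in other excitatory nuclei of Het and WT. Kirrel3 and Cdh9, adhesion genes tied to mossy fibre and dentate to CA3 synapses, were 1.83 and 1.87 log2 units higher in granule nuclei of Het. In WT the ratio was 1.57 for Kirrel3 and 2.28 for Cdh9. Slc30a3, the vesicular zinc transporter gene, was 1.52 log2 units higher in Het and 1.47 in WT. Pdyn, which encodes the opioid precursor prodynorphin of mossy fibres, had only 160 UMIs in Het and 115 in WT granule nuclei and was 4.74 log2 units higher there in Het and 3.87 in WT. Penk, the enkephalin precursor gene, had log2 ratios of 0.23 in Het and 0.11 in WT.

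Between the genotypes the granule profiles were close. Over the 10126 genes with at least 200 UMIs summed over the granule nuclei of both libraries, the median log2 ratio of Het over WT was -0.01, and 95% of the ratios lay between -0.38 and 0.38. The ratio was at least 0.5, the fold used for counts here, for 76 genes, 0.751% of those compared, and at most -0.5 for 90 genes, 0.889%, together 1.64%. Capza2, on chr6:17636234-17666972 of the GRCm38 (mm10) genome, had 1142 UMIs or 72.7 CPM in Het and 1080 UMIs or 94.6 CPM in WT. That is a log2 ratio of -0.38 (-0.50 to -0.26). The ratio was -0.41 in other excitatory nuclei and -0.75 in oligodendrocyte nuclei. The tags lie at the 3' end, and a tag outside the deleted stretch would still be counted, so the ratio is no check of the deletion. For the partner genes the interval held 0, with Capza1, the other alpha subunit gene, at -0.06 (-0.20 to 0.09) and Capzb at -0.10 (-0.25 to 0.06). Of 17 actin capping and regulating genes over the floor of 200 UMIs, 0 passed the fold in either direction and the median was 0.01. Carmil3, a capping protein regulator gene, had the lowest ratio of them, -0.44, with 218 UMIs in Het and 214 in WT.

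**Figure D2:**
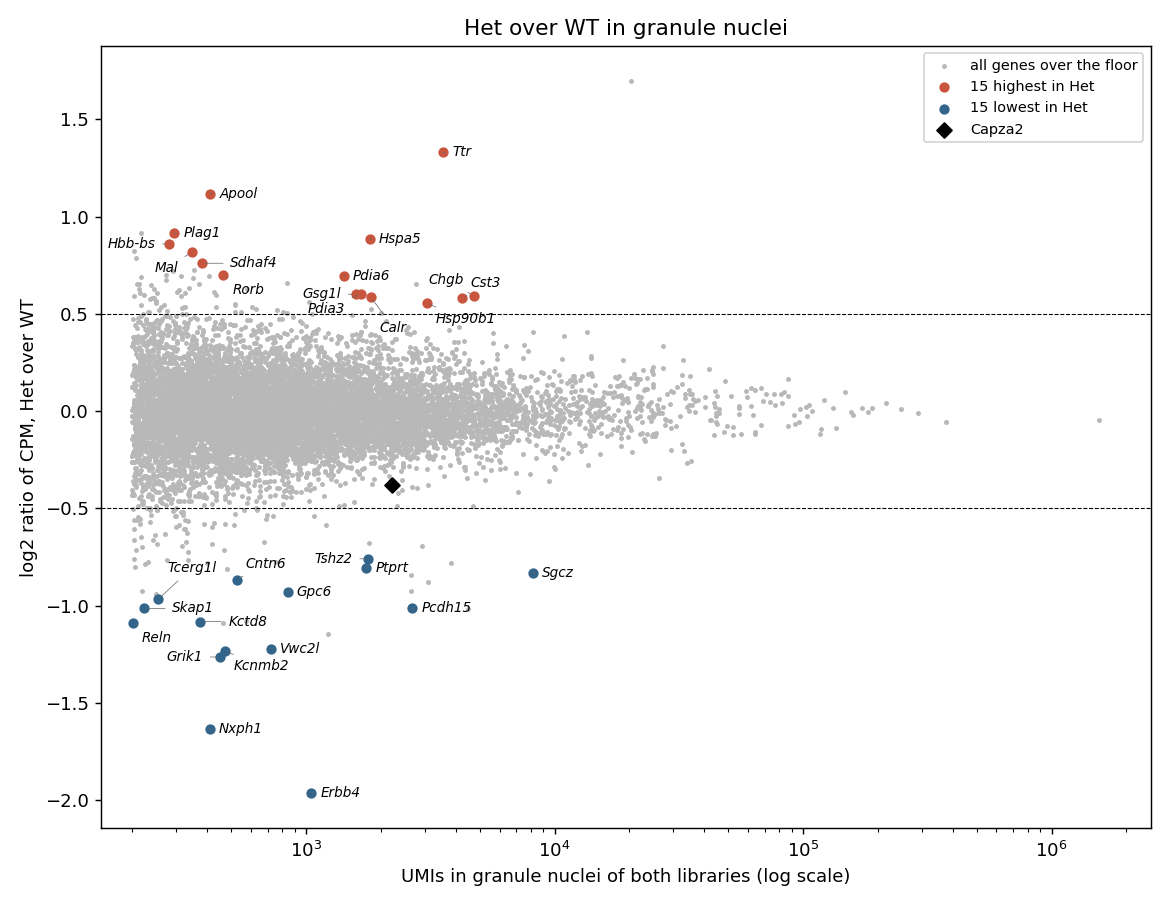
The log2 ratio of CPM, Het over WT, of the 10126 genes over the floor, against their summed UMIs in granule nuclei (log scale). Red points are the 15 genes highest and blue points the 15 lowest in Het by the interval bound nearest 0, the black diamond is Capza2 at -0.38, and dashed lines mark 0.5 and -0.5. The highest grey point is the gene model AC149090.1 at 1.70.

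Among the genes highest in Het granule nuclei were 5 protein folding genes of the endoplasmic reticulum (ER) and transcripts abundant in other cells. The 15 highest, ranked by the interval bound nearest 0, were Ttr, Apool, Hspa5, Plag1, Pdia6, Chgb, Cst3, Hbb-bs, Mal, Pdia3, Gsg1l, Calr, Hsp90b1, Sdhaf4 and Rorb. Ttr had 176 CPM in Het and 69.8 CPM in WT, a log2 ratio of 1.33. It was higher in Het in the other classes as well, by 1.80 in other excitatory nuclei and 1.87 in oligodendrocyte nuclei. The 8 markers of choroid plexus epithelium summed to 210.2 CPM in Het and 105 CPM in WT granule nuclei, with 8 of 8 detected in Het and 7 of 8 in WT, where Aqp1 was at 0. Without Ttr the other 7 markers summed to 34.6 CPM in Het and 35.1 CPM in WT, so the sum differed through Ttr. The part of this RNA in the Ttr ratio was not tested. Hbb-bs, a hemoglobin chain gene of red blood cells, had 200 UMIs in Het and 80 in WT, and the 4 hemoglobin genes summed to 22.6 CPM in Het and 11.7 CPM in WT. Apool, a gene of the cristae organising system of mitochondria, had 308 UMIs in Het and 103 in WT, and was also 2.01 log2 units higher in other excitatory nuclei of Het. Sdhaf4, encoding an assembly factor of succinate dehydrogenase, was 0.76 higher in granule nuclei and 0.10 in other excitatory nuclei. Plag1, a zinc finger transcription factor gene, was 0.92 higher in granule nuclei, where it had 213 UMIs in Het and 82 in WT, and 0.08 higher in other excitatory nuclei. Mal, a myelin membrane proteolipid gene, had 245 UMIs in Het and 101 in WT, and Cst3, the cystatin C gene that glia express strongly, 181 CPM in Het and 121 CPM in WT. Both were also higher in Het oligodendrocyte nuclei, Mal by 0.63 and Cst3 by 0.52 on the log2 scale. Rorb, a nuclear receptor gene used to mark cortical neurons, had all of its UMIs in the 5% of nuclei richest in it, in Het and in WT.

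Gene models without a symbol of their own and mitochondrial genes were left out of that ranking, and 2 of them were picked after their values were seen. AC149090.1 had 1053 CPM in Het and 325 CPM in WT granule nuclei, a log2 ratio of 1.70 (1.64 to 1.75). Its ratio was 1.75 in other excitatory and 2.26 in oligodendrocyte nuclei, so the 2 libraries differed in this transcript in all 3 classes. The labels give no strain background, and with 1 library each, differences in background and in genotype cannot be told apart. Gm48091 had 121 CPM in Het and 76.8 CPM in WT granule nuclei, a ratio of 0.66, against 0.14 in other excitatory nuclei. All 10 mitochondrial genes over the floor were lower in Het and past the fold, with a median of -0.86 in granule nuclei and -0.95 in other excitatory nuclei. These 10 are part of the 90 genes lower in Het.

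The listed ER folding genes over the floor were all higher in Het granule nuclei. Proteins made for secretion or for membranes are folded in the ER by chaperones such as the one encoded by Hspa5, and a load of unfolded protein raises the transcription of these genes through sensors on the ER membrane. Of 20 such genes listed, 17 were over the floor, all 17 were higher in Het, and 6 of them passed the fold, against 0.751% of all genes. Their median log2 ratio was 0.40, against -0.01 for all genes, and their summed counts were 13342 UMIs in Het and 7054 in WT, a ratio of 0.46. Hspa5, encoding the chief Hsp70 chaperone of the ER, had 1292 UMIs or 82.2 CPM in Het and 508 UMIs or 44.5 CPM in WT, a log2 ratio of 0.88 (0.74 to 1.04). Hsp90b1, its Hsp90 counterpart, had 130.3 CPM in Het and 88.8 CPM in WT, a ratio of 0.55 (0.44 to 0.66). The disulfide isomerase genes Pdia6, Pdia4 and Pdia3, whose products form and shuffle disulfide bonds, followed. Pdia6 had 62.4 CPM in Het and 38.5 CPM in WT (0.70), Pdia4 had 17.9 CPM in Het and 11.04 CPM in WT (0.70), and Pdia3 had 71.5 CPM in Het and 47.1 CPM in WT (0.60). Calr, the gene of the calcium-binding lectin chaperone calreticulin, had 78.1 CPM in Het and 52.0 CPM in WT (0.59). Its membrane-bound relative calnexin (Canx) had 105 CPM in Het and 88.3 CPM in WT (0.25).

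Of the stress transcription factors of the list, Xbp1 and Atf4 did not pass the fold, and Ddit3 was below the floor and was not compared. Xbp1, whose spliced product drives ER chaperone genes, had 355 UMIs in Het and 192 in WT, a log2 ratio of 0.42 (0.17 to 0.69). Atf4, the factor of the integrated stress response, was at 0.17 (-0.14 to 0.49), and Herpud1, a gene of ER-associated degradation, at 0.19 (-0.14 to 0.52). For both of these the interval held 0. The lowest ratio of the 17 was that of Dnajb9, an Hsp70 co-chaperone gene, at 0.08. Also below the floor, Creld2 had 99 UMIs in Het and 41 in WT, and Sdf2l1 had 101 in Het and 44 in WT. Manf, a secreted ER-resident factor gene, was at 0.29 and Hyou1, another ER chaperone gene, at 0.40.

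In other excitatory nuclei the same list had smaller values. Of its 17 genes over the floor there the median was 0.10, beside -0.06 for all 11219 genes over the floor, 12 of 17 were higher in Het and 0 of 17 passed the fold, beside 0.41% of all genes higher, 1.73% lower and 2.14% in either direction. Hspa5 had 48.3 CPM in Het and 39.4 CPM in WT other excitatory nuclei, a ratio of 0.29, and Hsp90b1 had 80.7 CPM in Het and 81.6 CPM in WT, a ratio of -0.02. Whether the difference between classes exceeds the spread between animals was not tested, since there is 1 library per genotype. In oligodendrocyte nuclei only 2 of the 20 genes were over the floor, both higher in Het, with a median of 0.47, and 1 of them passed the fold, beside 3.37% of the 1452 genes there higher, 2.69% lower and 6.06% in either direction. The ratio of Hspa5, below the floor, was 0.52.

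**Figure D3:**
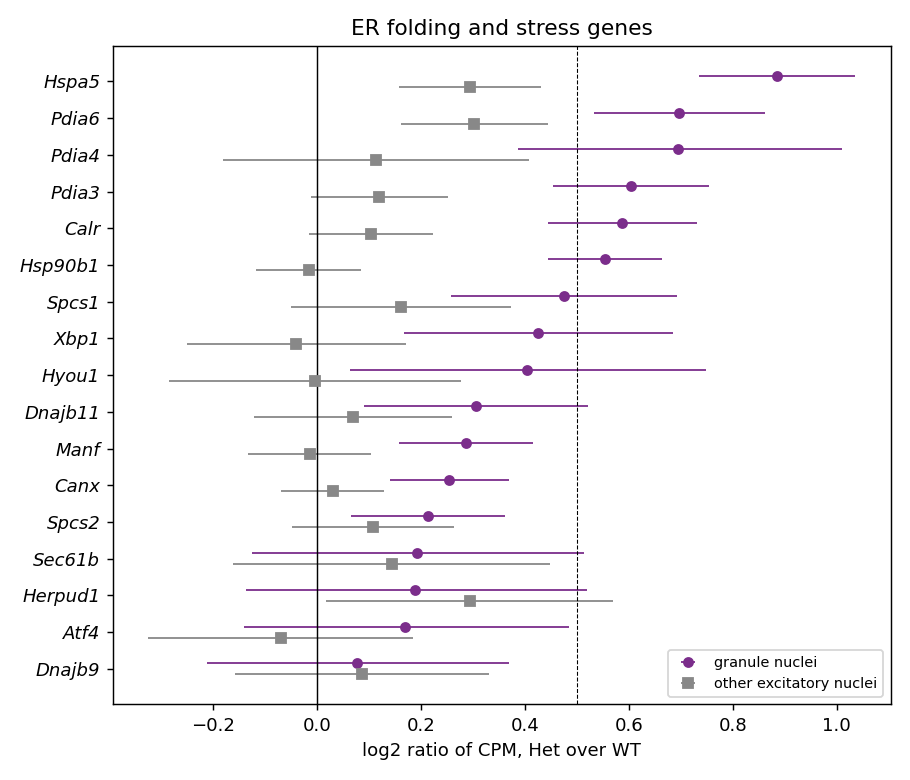
The log2 ratio of CPM, Het over WT, of the 17 ER folding and stress genes over the floor, in granule nuclei (purple circles) and other excitatory nuclei (grey squares), with exact 95% intervals (counting error only) and a dashed line at 0.5. All 17 granule points lie right of 0, and the 6 genes past the dashed line there are Hspa5, Pdia6, Pdia4, Pdia3, Calr and Hsp90b1.

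The ER difference was spread over the granule nuclei. With every nucleus thinned at random to 2000 UMIs, which kept 1785 Het and 1256 WT nuclei, the 20 genes gave a mean of 1.88 UMIs per nucleus in Het and 1.32 in WT. Nuclei with 0 such UMIs were 16.8% in Het and 28.8% in WT, and nuclei with at least 3 were 28.6% in Het and 14.97% in WT. Without thinning the means were 7.63 in Het and 5.73 in WT. Thinned other excitatory nuclei held 1.38 in Het and 1.27 in WT, and thinned oligodendrocyte nuclei, of which 229 in Het and 187 in WT were deep enough, held 2.36 in Het and 1.71 in WT. The 5% of granule nuclei richest in Hspa5 held 25.3% of its UMIs in Het and 31.3% in WT. The median over 9653 genes was 38.01% in Het and 37.6% in WT. This share falls by itself as UMIs rise, and those genes were not matched to Hspa5 in count, so the lower value does not show an even spread. Ribosomal protein transcripts were also higher, at 6373 CPM in Het and 5580.3 CPM in WT granule nuclei, and their part in the ER result was not tested.

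**Figure D4:**
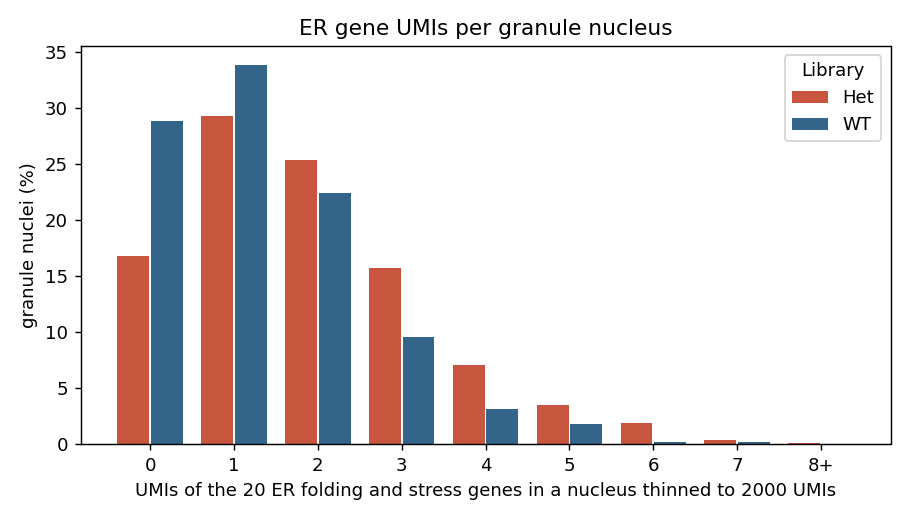
The share of granule nuclei by the number of UMIs of the 20 ER folding and stress genes, each nucleus thinned to 2000 UMIs, with Het bars left of WT bars. Nuclei with 0 UMIs are 16.8% in Het and 28.8% in WT, and every bar from 2 UMIs upwards is taller in Het.

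The promoters of several of these genes share a known element. The ER stress response element is CCAAT, 9 bases of any kind, then CCACG, and is bound by stress-activated transcription factors together with NF-Y. It was searched on both strands of RefSeq promoter windows (GRCm38.p6, 250 bases before to 50 after each gene start), a search chosen after the ER values had been seen. A match was in 39 of 32851 windows, or 0.119%. Of the 20 ER genes 18 had a window, and 6 of those held a match: Hspa5, Hsp90b1, Calr, Pdia6, Canx and Creld2. Canx, which did not pass the fold (0.25), and Creld2, below the floor, carry the same letters and are not printed. Sites are shown for the 4 over the floor and past the fold. Each is the 30 bases around a match, read so that CCAAT comes first, with both conserved blocks in capitals.
Hspa5, chr2:34772019-34772048, plus strand: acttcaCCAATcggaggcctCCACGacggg
Hsp90b1, chr10:86705633-86705662, minus strand: acaagcCCAATcgcaaggagCCACGcttcg
Hsp90b1, chr10:86705527-86705556, plus strand: aactcaCCAATcgtgcctcaCCACGcactc
Calr, chr8:84847069-84847098, plus strand: tatgggCCAATgagggtcgaCCACGcgttg
Pdia6, chr12:17266485-17266514, plus strand: cagagaCCAATgaaaggcggCCACGgcgtg
The Hspa5 match lay 65 to 47 bases before the RefSeq start. Pdia3 and Pdia4, which also passed the fold, held no match in their windows. A match describes the letters of a window, and binding was not measured.

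The other lists had medians between -0.18 and 0.17. Beside them 48.3% of all genes were higher in Het, and 0.751% passed the fold higher. Of 61 nuclear genes of the respiratory chain, 54 were higher in Het and 0 passed the fold, with a median of 0.17 in granule nuclei, -0.05 in other excitatory nuclei and 0.36 over the 22 genes over the floor in oligodendrocyte nuclei. Cox8a, a subunit gene of cytochrome c oxidase, had 232 CPM in Het and 176 CPM in WT granule nuclei, a ratio of 0.40. The 10 mitochondrially encoded genes went the other way, as given above. Of 15 secretory granule and peptide genes over the floor, 12 were higher in Het and 1 passed the fold, with a median of 0.16. That one was Chgb, encoding the granule protein chromogranin B, with 203 CPM in Het and 134 CPM in WT (0.59). Nptx1, encoding a secreted pentraxin that clusters glutamate receptors, had 171 CPM in Het and 126 CPM in WT (0.43), and Scg2, the secretogranin II gene, 104 CPM in Het and 84.5 CPM in WT (0.30).

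Receptor and channel genes are read against the shares of all genes past the fold, 0.751% higher and 0.889% lower. Of 11 GABA-A receptor subunit genes over the floor, 8 were higher in Het and 0 passed the fold. Gabrg3, a gamma subunit gene, had 173 CPM in Het and 221 CPM in WT, a ratio of -0.35. Gabrd, the delta subunit of tonic inhibition in granule cells, was at 0.08 (-0.11 to 0.27). Of 21 glutamate receptor genes the median was -0.03, and 1, the kainate receptor gene Grik1, passed the fold, lower in Het. Its ratio of -1.26 was -2.56 in nuclei with neither Lct nor Trhr. In nuclei with Trhr only it was higher in Het, with 50.7 CPM in Het and 26.9 CPM in WT. It was -0.37 in nuclei with Lct only, and -0.090 without nuclei that hold other classes' or other excitatory genes, and passed the fold in neither. Of 30 potassium channel genes 2 passed, both lower in Het, the BK channel beta subunit gene Kcnmb2 and Kcnip1, encoding a Kv4 partner. Kcna4, a Kv1 channel gene of A-type currents, stood at the edge with 64.3 CPM in Het and 45.7 CPM in WT (0.49). Mossy fibre synapse genes had a median of 0.05 and 0 past the fold, with Slc30a3 highest at 0.34. Granule cell genes outside the rule had a median of 0.08 and 0 past the fold.

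Activity-regulated and immature granule genes were sparse. Of 14 activity-regulated genes over the floor 7 were higher and 7 lower, and only Egr3, an immediate early transcription factor gene, passed the fold, beside 0.751% of all genes, with 347 UMIs in Het and 172 in WT (0.55). Nuclei with at least 3 of Fos, Fosb, Junb, Arc, Egr1, Npas4 and Nr4a1 were 58 of 1789 in Het, 3.24% (2.47% to 4.17%), and 42 of 1257 in WT, 3.34% (2.42% to 4.49%). After thinning they were 7 of 1785 in Het and 2 of 1256 in WT. In oligodendrocyte nuclei, which have fewer UMIs (medians of 2262 in Het and 2331 in WT), they were 0 of 346 in Het and 0 of 269 in WT, which allows a share of up to 0.867% in Het and 1.12% in WT by a limit of 3 counts. Nuclei with at least 2 of Dcx, Sox11, Igfbpl1 and Draxin, genes of newborn granule cells, were 4.47% in Het (3.56% to 5.53%) and 3.66% in WT (2.69% to 4.85%), and after thinning 4 of 1785 in Het and 6 of 1256 in WT. In thinned oligodendrocyte nuclei they were 0 of 229 in Het and 1 of 187 in WT. These counts are too few to say whether the thinned granule shares lie above that background. Tubb3, the neuronal tubulin gene, had 353 UMIs in Het and 338 in WT, the lowest ratio of the 6 immature genes over the floor, at -0.40. Of those 6 genes 3 were higher and 3 lower in Het, with a median of -0.03, and of 6 dividing cell genes 1 was over the floor, at -0.01.

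The genes lowest in Het granule nuclei had most of their UMIs in few nuclei. The 15 lowest were Erbb4, Nxph1, Vwc2l, Grik1, Kcnmb2, Pcdh15, Kctd8, Sgcz, Gpc6, Reln, Ptprt, Tshz2, Skap1, Cntn6 and Tcerg1l. Erbb4, the neuregulin receptor gene, abundant in interneurons, had 274 UMIs in Het and 775 in WT, a log2 ratio of -1.96, and 94.5% of its UMIs in Het and 95.5% in WT lay in the richest 5% of nuclei. For 13 of the 15 in Het and 12 of the 15 in WT that share was at least 80%. Over the 9653 genes in the same range of totals the median share was 38.01% in Het and 37.6% in WT. That range is wide, so the median is not matched to the count of each gene. The share rises by itself as counts fall. Reln had fewer Het UMIs than there are nuclei in the richest 5%, so its Het share was fixed in advance. Reln, the secreted protein gene of Cajal-Retzius cells and some interneurons, had 79 UMIs in Het and 122 in WT. The 5 Cajal-Retzius markers summed to 8.59 CPM in Het and 13.5 CPM in WT, with Lhx5 at 0 in both and Lhx1 at 0 in WT. Without Reln the other 4 markers summed to 3.56 CPM in Het and 2.80 CPM in WT. Counting 45 markers of other cell classes, 43 Het granule nuclei, 2.40%, and 21 WT granule nuclei, 1.67%, held at least 5 such UMIs. Without them Erbb4 stood at -1.01 and Nxph1, an interneuron neurexophilin gene, at -0.94, against -1.63 with them. The ratios of Erbb4 and Nxph1 thus rested largely on few nuclei. Kcnmb2 stood at -1.06 and Sgcz, a sarcoglycan gene, -0.82 without them. With nuclei rich in other excitatory cells' genes left out too, these were -0.70 for Kcnmb2, -0.62 for Sgcz, -0.39 for Erbb4 and -0.11 for Nxph1. Over the alternative settings Vwc2l, Tcerg1l, Pcdh15, Sgcz and Skap1 stayed past the fold. Their ratios nearest 0 were -0.83, -0.69, -0.56, -0.59 and -0.53 in that order. Each of the rest of the 15 fell short of the fold in at least 1 alternative.

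Among granule nuclei, some genes spread more widely than counting alone would give. The 15 genes with the highest variance over mean after thinning were Dpp10, Galntl6, Malat1, Gpc5, Nrxn3, Cntnap2, Etl4, Sgcz, Ttr, Kcnq5, Ntm, Nrg1, Lrrtm4, Tenm2 and Chrm3, against a median of 1.04 over 3263 genes in both Het and WT. Ranked by the lower of the libraries, Dpp10, a Kv4 channel partner gene, came first with 14.6 in Het and 13.1 in WT. It had 312 CPM in Het and 400.5 CPM in WT granule nuclei against 1625 CPM in Het and 2256 CPM in WT other excitatory nuclei. The 8 genes lowest in granule nuclei reached at least 10 UMIs in 141 Het and 119 WT granule nuclei, 7.88% of the Het and 9.47% of the WT members. Those nuclei were deep, with a median of 17724 UMIs in Het and 16656 in WT, and they held 90.1% of the Dpp10 UMIs in Het and 88.1% in WT. They also held 90.9% of the Galntl6 UMIs in Het and 83.3% in WT, but 11.6% of those of Lrrtm4 in Het and 13.8% in WT. Lrrtm4, a synaptic organiser gene of granule cell dendrites, is higher in granule than in other excitatory nuclei and had a variance over mean of 3.27 in Het and 3.30 in WT. Ttr had 3.70 in Het and 38.5 in WT. The rule did not remove doublets, and nuclei among the highest 6% of doublet scores of their library were 86 of the Het and 74 of the WT members.

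The share of granule nuclei with a long-axis marker differed between the libraries by more than counting error for Lct. Lct, the lactase gene, marks dorsal granule cells in mouse, and Trhr, the receptor gene for thyrotropin-releasing hormone, ventral ones. Nuclei with Lct and no Trhr were 456 in Het, 25.5% (23.5% to 27.6%), and 260 in WT, 20.7% (18.5% to 23.0%). Nuclei with Trhr and no Lct were 126 in Het, 7.04% (5.90% to 8.33%), and 133 in WT, 10.6% (8.93% to 12.4%). The share with any Lct UMI was 1.27 times as high in Het (1.09 to 1.47) and that with any Trhr UMI 0.825 times (0.665 to 1.02). After thinning, Lct was found in 9.24% of Het and 6.21% of WT granule nuclei and Trhr in 3.08% of Het and 4.62% of WT nuclei. Thinned oligodendrocyte nuclei had Lct in 3 of 229 in Het and 0 of 187 in WT. They had Trhr in 0 of 229 in Het and 1 of 187 in WT. In thinned other excitatory nuclei Lct was found in 1.45% in Het and 1.30% in WT, and Trhr in 0.868% in Het and 1.09% in WT. The shares of both classes were lower than the granule shares.

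The other genes of the long-axis list were split. On the dorsal side Gsg1l, encoding an AMPA receptor auxiliary protein, had 68.2 CPM in Het and 45.0 CPM in WT (0.60), and Spata13, a guanine exchange factor gene, 22.2 CPM in Het and 16.9 CPM in WT (0.39). On the ventral side Nr2f2, a nuclear receptor gene, had 90 UMIs in Het and 114 in WT (-0.80), Cpne7, a copine gene, 26.8 CPM in Het and 33.7 CPM in WT (-0.33), and Grp, the gastrin-releasing peptide gene, 11.5 CPM in Het and 13.1 CPM in WT (-0.18, -0.50 to 0.14).

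Setting the Trhr nuclei against the Lct nuclei within each library gave genes of either side that the rule did not use. This comparison was chosen after values had been seen, and the 12 genes of each side were ranked by the bound nearest 0 in both libraries. Of 10103 genes compared, 0.356% were at least 2-fold higher in Trhr nuclei in both libraries and 0.307% at least 2-fold higher in Lct nuclei. On the Trhr side were Nhs, Kcnmb2, Stk32b, Scn9a, Zfp423, Ano2, Tox3, Pdzrn4, Lcorl, Cdh13, Tcerg1l and Fat1. Nhs, an actin remodelling gene, had 66.6 CPM in Trhr nuclei and 12.7 CPM in Lct nuclei of Het, and 110 and 19.1 CPM in WT. Kcnmb2 had 41.5 and 7.83 CPM in Het, and 78.8 and 6.83 CPM in WT, again with Trhr nuclei first. Scn9a, a voltage-gated sodium channel gene, had 69.2 and 22.6 CPM in Het, and 106 and 23.9 CPM in WT. On the Lct side were Clmp, Syndig1, Lama2, Pde4d, Sox6, Itga7, Robo3, Gpc5, Stat3, Fstl4, Svil and Mfsd4a. Gpc5 had 88.9% of its UMIs in Het and 87.3% in WT in the 5% of granule nuclei richest in it. It stood higher in other excitatory nuclei, at 452 CPM in Het and 412 CPM in WT, than in granule nuclei, at 134 and 131 CPM. The part of few nuclei in the place of Gpc5, or of Kcnmb2, was not tested. Clmp, an adhesion gene, had 11.2 CPM in Trhr nuclei and 48.3 CPM in Lct nuclei of Het, and 6.91 and 52.2 CPM in WT. Pde4d, a cyclic AMP phosphodiesterase gene, had a log2 ratio of Trhr over Lct nuclei of -1.22 in Het and -0.97 in WT. Trhr nuclei were deeper than Lct nuclei, with medians of 10626 and 7969.5 UMIs in Het and 9164 and 8734.5 UMIs in WT.

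Over all granule nuclei the 12 genes of the Trhr side were lower in Het, beside 5240 of the 10126 genes over the floor. Fat1, with 66 UMIs in Het and 66 in WT, was below that floor and so is not among the 10126. The log2 ratios of the 12 lay between -1.23 and -0.05, from the same libraries as the comparison above. Nhs had 336 UMIs in Het and 418 in WT, a log2 ratio of -0.78, Kcnmb2 174 in Het and 297 in WT (-1.23), and Stk32b was at -0.60. Tox3 and Pdzrn4 were at -0.10 and -0.05. Both intervals held 0, as did those of Zfp423 at -0.23 and Fat1 at -0.46. On the Lct side 7 genes were higher and 5 lower in Het, between 0.33 for Lama2, a laminin gene, and -0.46 for Sox6, a transcription factor gene. Sox6, with 95 UMIs in Het and 95 in WT, was also below the floor. Itga7 was at -0.29, Stat3 at -0.26 and Syndig1 at -0.13. Within nuclei with Trhr only, Nhs was at -0.72 (-1.10 to -0.35), Kcnmb2 at -0.92 (-1.39 to -0.47), Stk32b at -0.91, Scn9a at -0.62 and Tcerg1l at -1.22. Nhs was at -0.59 in nuclei with Lct only and -0.62 in nuclei with neither marker, while Kcnmb2 was at 0.20 and -1.56 in these. The genes of the Trhr side were split in nuclei with Lct only, with Tcerg1l at -0.95 but Stk32b and Pdzrn4 both at 0.32 and Cdh13 at 0.15. In nuclei with Trhr only, Lcorl was at -0.01 and Fat1 at -0.07. The part of the axis shares in the lower counts was not tested.

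**Figure D5:**
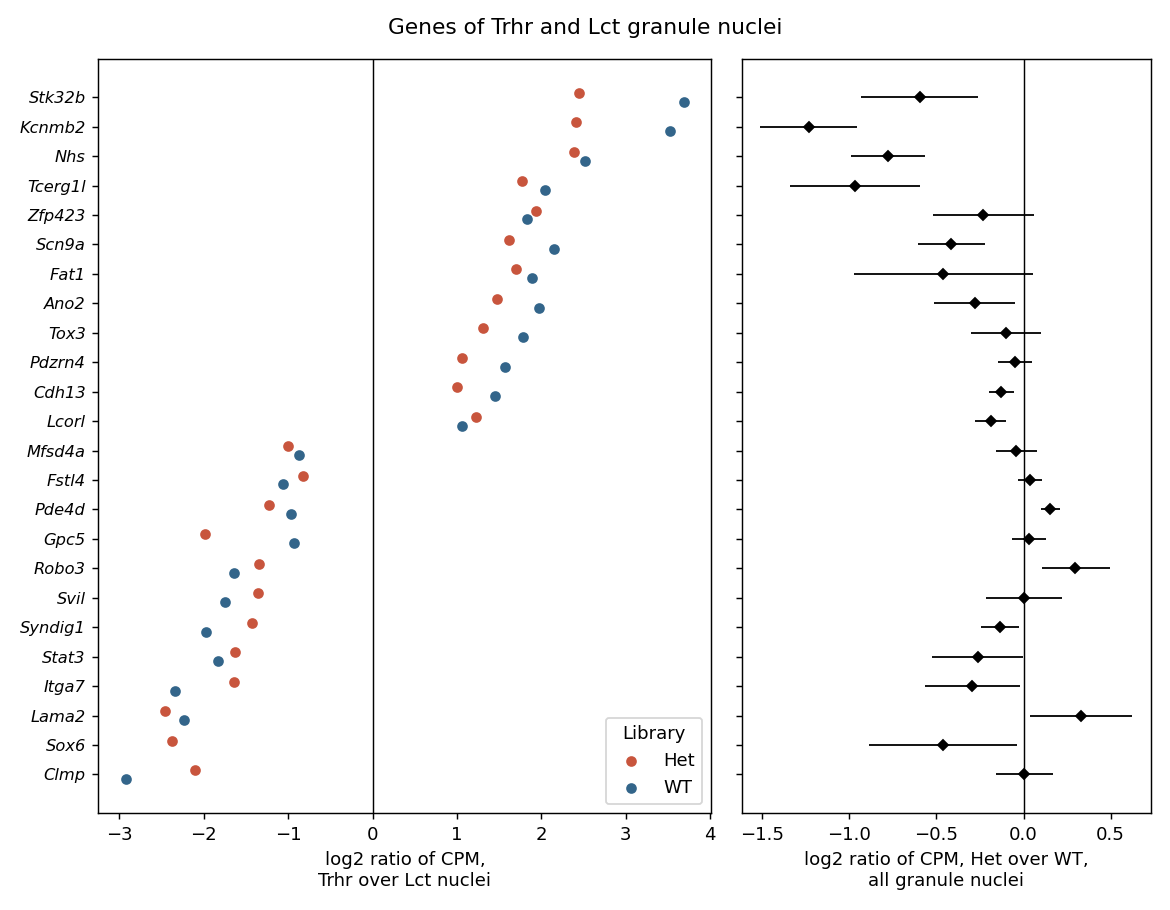
Left, the log2 ratio of CPM, Trhr over Lct granule nuclei, for 12 genes of each side in Het and WT, each within its own library (the WT value of Sox6 is not drawn because its Trhr nuclei had 0 UMIs). Right, the log2 ratio of Het over WT for the same genes over all granule nuclei with exact 95% intervals, lowest for Kcnmb2 at -1.23.

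The ER genes were also compared among nuclei of like axis markers. In nuclei with Lct only all 17 ER genes were higher in Het, with a median of 0.50, and in nuclei with neither marker all 17 were higher, with a median of 0.50. In nuclei with Trhr only, which hold 1111 ER UMIs in Het and 913 in WT, 13 of 17 were higher and the median was 0.23. Hspa5 was at 0.71 in Lct only, 0.69 in Trhr only and 0.96 in nuclei with neither. Capza2 was at -0.39, -0.46 and -0.38 in the same order.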

How the data were processed

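The deposited files hold whole-number counts of UMIs per gene and nucleus, 1 matrix per library. Per the submitters' processing notes they were made with Cell Ranger 7.1.0 on the mm10 genome; the sources used here say nothing of doublet removal. No doublet caller was used in the rule, and Scrublet (scanpy 1.11.5) served as an alternative. Counts were summed over the granule nuclei of each library, divided by the summed total (CPM), and compared as log2 ratios with exact conditional binomial 95% intervals (scipy 1.17.1), with a floor of 200 UMIs summed over the libraries. Shares have exact Clopper-Pearson intervals, and counts of genes are counts past a log2 ratio of 0.5, since 1 library per genotype allows no test. Nuclei were thinned to 2000 UMIs for values per nucleus. The ratio computation was checked on simulated counts. Oligodendrocyte nuclei, with at least 5 UMIs of Mobp and Mog and few neuronal markers, served as background. The genes named between libraries, and those named against other excitatory nuclei (15 highest, 8 lowest), leave out mitochondrial, Y-linked and rule genes, Xist, Tsix and models lacking a symbol; between libraries they are the 15 highest and 15 lowest by the interval bound nearest 0; up to 6 genes of each list are named by size of ratio or leading role. The members, lists and comparisons were chosen with earlier results of these data known. Gene positions are from GENCODE M21. Alternatives covered the marker threshold, gene filter, doublet scores, thinning, weighting, totals, floors, mixed nuclei and axis subsets. Some genes that the naming rule takes in are not reported here.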

Additional observations from a re-analysis of the deposited data

Results flagged for a closer look

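Gsg1l was on opposite sides in the 2 excitatory classes. Its log2 ratio of Het over WT was 0.60 in granule nuclei (0.45 to 0.76), where it had 1072 UMIs in Het and 513 in WT. In other excitatory nuclei it was -0.22, with 16.9 CPM in Het and 19.7 CPM in WT. The difference between the classes was not tested.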

How the results depend on the processing

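No paired analysis was possible because each genotype has 1 library. The granule share ratio, 1.27 or 0.34 on the log2 scale, was 1.502 (0.59) when the rule was applied after thinning to 2000 UMIs with a marker sum of 3. The counts past the fold, 76 higher and 90 lower of 10126 genes, were 50 and 40 of 4835 after thinning, where fewer genes reach the floor. They were 420 and 377 of 13726 genes with a floor of 50 UMIs, and 2535 and 1937 of 20577 with no floor. The median ER ratio, 0.40, was 0.30 with a marker sum of at least 3, 0.34 with at least 8, 0.50 in nuclei with Lct only and 0.50 in nuclei with neither marker. The cause was not tested for the share and the ER medians. Capza2 lay between -0.46 and -0.35 over 11 alternatives. Reln turned to 0.10 and Ptprt to 0.044 without the nuclei with markers of other classes or genes of other excitatory nuclei. There Tshz2 was also at -0.0050, Grik1 at -0.090, Gpc6 at -0.10, Nxph1 at -0.11 and Erbb4 at -0.39, and Cntn6 was at -0.24 in nuclei with Lct only. In nuclei with Lct only, Kcnmb2 turned to 0.20, Kctd8 to 0.28 and the long-axis median to 0.29. Leaving out the mixed nuclei, 164 in Het and 128 in WT, gave 86 genes higher and 68 lower of 9301 compared. Of the main results under an alternative, 42 values stayed within their limits and 11 moved past them. Of the named genes and other lists, 335 values stayed within their limits, 133 moved past them and 5 changed sign. Replicates, and so the spread between animals, limit every comparison of genotypes.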
